A study of Homo sapiens with 6 samples.

Results

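RAB GTPases are the small GTP-binding proteins that direct vesicle traffic between the membranes of a cell, and their transcripts were examined here in HL60 cells with and without a deletion of SKI. The RAB genes were taken by name, as RAB followed by a number and at most 1 letter and 1 digit, with at least 60 counts summed over the 6 libraries. Of 56638 gene names 64 matched, and 51 of these had enough counts. The gene nearest above the minimum was RAB39A with 83 counts, and the nearest below it was RAB17 with 48. The names below the minimum also held RAB36 at 41 counts, RAB34 at 28 and RAB13 at 15, while RAB25, RAB6C, RAB1C, RAB39B, RAB40A and the pseudogene RAB42P1 had 7 counts or fewer and RAB19, RAB41 and the pseudogene RAB43P1 had 0. The 51 genes kept were all tested.

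HL60 is an established promyelocytic leukaemia line, grown here in medium with 10% serum. SKI is a transcriptional co-repressor known for its binding to SMAD proteins. The control group was 3 libraries of cells labelled CRISPR/Cas9 control, with the number 1 in their titles. The knockout group was 3 libraries of cells with CRISPR/Cas9-mediated deletion of SKI, with the number 3 in their titles. Each group carries a single such number, so an effect of the deletion cannot be told apart from a difference between the lines. No label states whether the replicates came from separate cultures, and the p-values cover only the spread among these libraries, which may be technical.

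A RAB protein acts as a switch. Exchange factors load it with GTP at a particular membrane, GTPase-activating proteins return it to the GDP form, and a lipid anchor added by geranylgeranyl transferase holds it in the membrane until GDI extracts it. In the GTP form each RAB recruits effectors such as tethers, motors and fusion factors, so that different RABs mark the Golgi, early endosomes, recycling endosomes, lysosomes and secretory granules. Cells of the neutrophil lineage store their proteases in granules, and RAB27A is known for its part in the release of those granules.

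Library totals ran from 47930276 to 58553247 counts. SKI transcripts measured 63.9, 83.5 and 88.5 CPM (counts scaled to a common library size) across the controls against 59.6, 40.7 and 42.0 CPM across the knockouts (log2 fold change -0.73, edgeR adjusted p = 0.0282), and reads from outside the deleted part do not check the deletion. All 9 promyelocytic and myeloid markers were detected, with a summed level from 12508 to 14799 CPM in controls and from 3069 to 8985 CPM in knockouts. A few abundant markers can set such a sum, and single markers are not shown. The part of this lower summed level in the RAB results was not tested. In bulk RNA fewer cells of a type and less RNA per cell cannot be told apart. For 5 lymphoid markers the summed level was from 0.967 to 1.41 CPM in controls and from 2.05 to 5.87 CPM in knockouts. It was at most 0.0414 CPM for 4 erythroid markers, 1.09 CPM for 3 megakaryocytic markers and 0.343 CPM for 5 epithelial or stromal markers. MS4A1, HBA1, ALAS2, PF4 and KRT19 had no read in any library.

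RAB37, RAB32, RAB43, RAB8B, RAB31, RAB24, RAB22A and RAB27A rose in the knockout, and RAB3A, a RAB of regulated secretion, fell. The other 42 of the 51 RAB genes did not pass edgeR's quasi-likelihood test at an adjusted p of 0.05. The 9 called genes were 17.6% of the RAB genes, against 11.8% of the 16340 genes tested. Genes that rose were 6.19% of all genes tested and those that fell 5.63%. Among the 10568 tested genes whose average log2 CPM was 2 or more, which include 39 of the RAB genes and all 9 that were called, 12.8% were called. The log2 fold change was above 0 for 36 of the 51 RAB genes, against 49.2% of all genes tested. Its median was 0.35 over the RAB genes and -0.01 over all genes tested, with a range from -1.36 to 1.82 over the RAB genes. Groups did not overlap for 29 RAB genes, against 32.2% of all genes tested: 22 had every knockout library above every control library (16% of all genes tested) and 7 had them below (16.1%). Of the 22, knockout replicate 2 was the lowest knockout library for 15 and knockout replicate 1 the highest for 11. The called RAB genes were 4, 3 and 2 without control replicates 1, 2 and 3, or 7.84%, 5.88% and 3.92% of the RAB genes, against 8.09%, 5.61% and 4.45% of all genes tested in the same fits. Without knockout replicate 1 they were 3 (5.88%, against 6.09%), so in these 4 fits the RAB share was close to that of all genes. Without knockout replicates 2 and 3 the count was 11 and 13 (21.6% and 25.5%, against 14.7% and 13.6%).

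**Figure D1:**
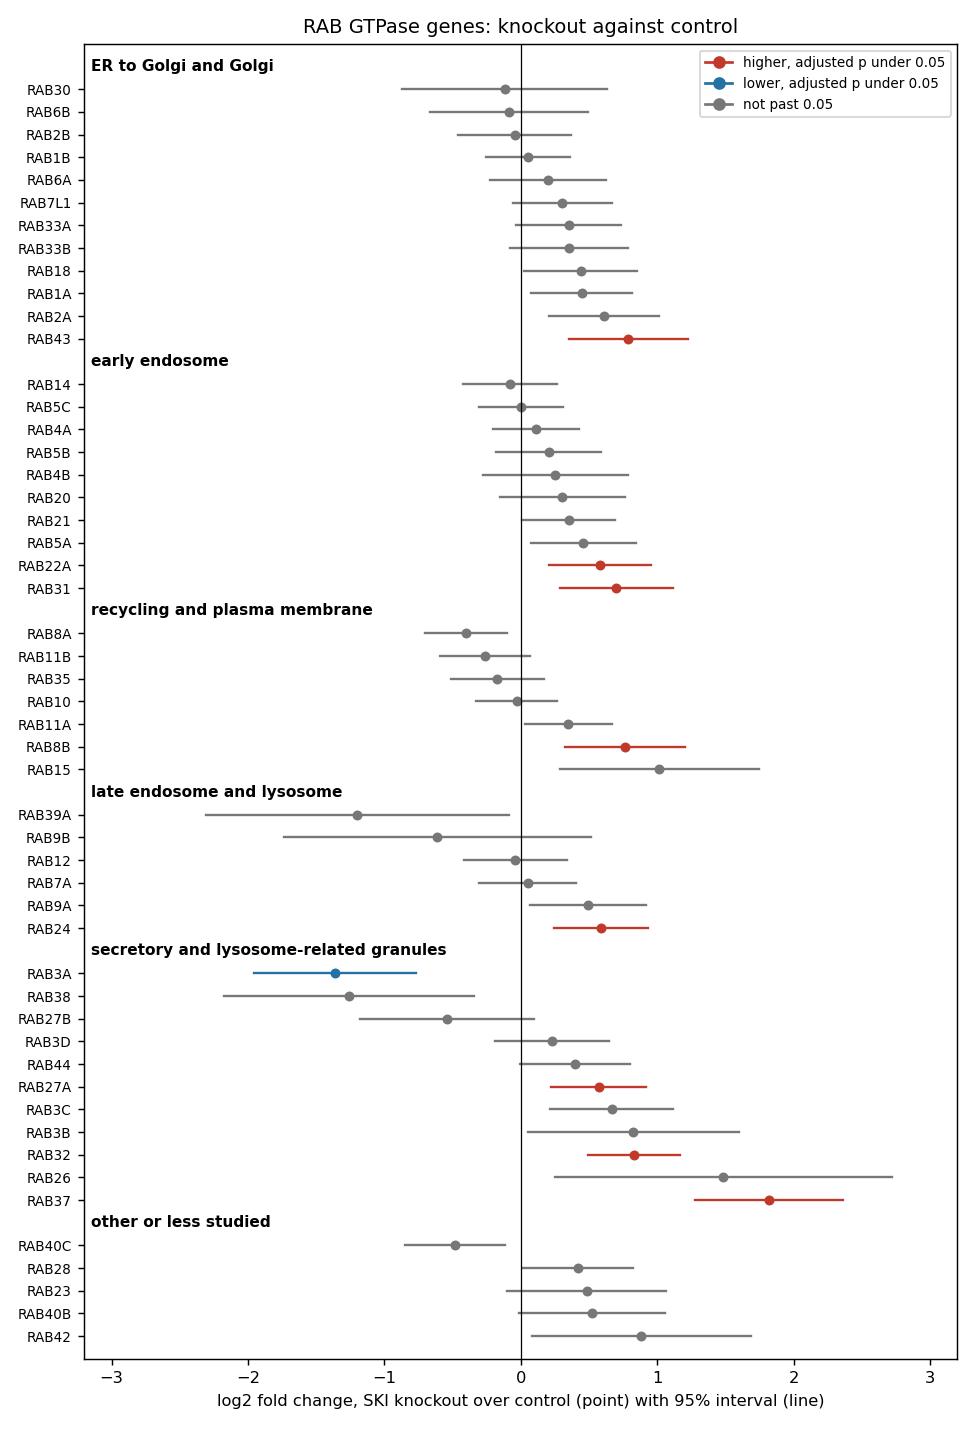
Log2 fold change of each of the 51 RAB genes, knockout over control (points, horizontal axis), with its 95% interval from the edgeR fit (lines), grouped by the transport step each is best known for. The 8 red genes rose and the blue gene, RAB3A, fell, while 42 grey genes did not pass, and 36 of the 51 points lie to the right of 0.

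Summed over the 51 genes, RAB transcripts came to 1750, 1692 and 1646 CPM across the controls and 2039, 1875 and 1964 CPM across the knockouts. All 3 knockout sums lay above all 3 control sums, with means of 1696 ± 51.9 and 1959 ± 82.2 CPM (SD, n = 3). A two-sided exact permutation test gave p = 0.1, the smallest that 3 against 3 libraries allow.

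Levels per length were taken as CPM per kilobase of the deposited gene length (RPKM). In the control they spanned from 0.0276 to 80.2 RPKM, with a median of 5.94 RPKM. Orders of genes and shares of families by RPKM depend on these lengths, which can differ from the lengths of the transcripts made. For RAB5C the deposited length was 5468 bases, while its transcripts in the reference annotation held 2902 distinct 50-base stretches. Of the 51 genes, 16 were at 10 RPKM or more and 13 under 1 RPKM. The most abundant were RAB1B, which acts between the endoplasmic reticulum and the Golgi, at 80.2 ± 4.60 RPKM, and RAB7A, the RAB of late endosomes and lysosomes, at 72.6 ± 8.37 RPKM (SD, n = 3 controls each). These neighbours in the order of levels did not differ beyond their spread. RAB32 followed at 33.5 ± 2.43 RPKM, RAB33A at 26.9 ± 5.52 RPKM and RAB8A at 24.4 ± 0.692 RPKM (SD, n = 3 controls each), and RAB33A and RAB8A were within their spread of each other. In the knockout RAB1B was at 83.1 ± 5.70 RPKM, RAB7A at 75.2 ± 10.6 RPKM and RAB32 at 59.6 ± 8.29 RPKM (SD, n = 3 each). The log2 fold change of CPM was 0.05 with a 95% interval from -0.26 to 0.36 for RAB1B, and 0.05 with an interval from -0.30 to 0.40 for RAB7A. The 5 genes highest in the control held from 42.7% to 45.2% of the summed RPKM of all RAB genes in controls and from 39.96% to 44.6% in knockouts.

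RABs of secretory and lysosome-related granules held 4 of the 9 called genes. Of 11 such genes 3 rose, 1 fell and the other 7 missed the threshold. The median log2 fold change of these genes was 0.57. Control and knockout did not overlap for 9, with the knockout above for 6 and below for 3. Of all genes tested 11.8% were called and 32.2% did not overlap. RAB37, a RAB of secretory granules, measured 25.9, 12.3 and 22.3 CPM across the controls against 74.8, 58.7 and 79.8 CPM across the knockouts. The lowest knockout value was above the highest control value, and control replicate 2 was the lowest library. RAB37 was 3.53-fold higher (log2 1.82, SE 0.25, adjusted p = 0.00134 in edgeR). It passed in all 14 alternative analyses, with log2 fold changes between 1.56 and 2.04 and adjusted p-values up to 0.0143.

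RAB32, which acts in the making of melanosomes and other lysosome-related organelles, measured 44.1, 40.1 and 38.3 CPM across the controls and 68.3, 65.3 and 84.1 CPM across the knockouts. The groups did not overlap, and RAB32 was 1.78-fold higher (log2 0.83, SE 0.15, adjusted p = 0.00602). RAB32 lies on chromosome 6, whose genes had a median log2 fold change of 0.43, and with each library centred on its chromosome medians the RAB32 log2 fold change was 0.40 (adjusted p = 0.121). It passed in the other 13 alternatives, each left-out library among them. Its close relative RAB38 was far lower, at 0.356, 0.764 and 0.440 CPM across the controls and 0.235, 0.186 and 0.229 CPM across the knockouts. All knockout values of RAB38 lay below those of the controls, at a log2 fold change of -1.26 that did not pass (adjusted p = 0.0745) and at 121 counts over all libraries.

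RAB27A, which brings granules to the plasma membrane for release, measured 65.6, 63.4 and 54.2 CPM across the controls and 106, 86.3 and 79.8 CPM across the knockouts. The groups did not overlap, and RAB27A was 1.49-fold higher (log2 0.57, SE 0.16, adjusted p = 0.0383). Without control replicates 1, 2 and 3 and knockout replicate 1 the adjusted p was 0.0843, 0.120, 0.175 and 0.116, and with library totals in place of TMM scaling it was 0.0554. RAB27B, its paralog, lay from 1.07 to 1.44 CPM in controls and below them from 0.781 to 0.952 CPM in knockouts, and did not pass (log2 -0.54, adjusted p = 0.263). In the reference annotation, exons of RAB27A overlap PIGBOS1 on the same strand and PIGB on the opposite strand, and PIGB was at a log2 fold change of -0.10 (adjusted p = 0.776).

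RAB3A, the RAB of synaptic and neuroendocrine vesicles, was the only RAB gene called lower. It measured 7.09, 4.40 and 7.75 CPM across the controls and 2.46, 2.96 and 2.06 CPM across the knockouts. Every knockout value was below every control value, and the level was 2.57-fold lower (log2 -1.36, SE 0.27, adjusted p = 0.00839). Without control replicate 3 the log2 fold change was -1.21 and the adjusted p 0.0559. RAB3A lies on chromosome 19, whose genes had a median log2 fold change of -0.49, and after chromosome centring it was at -0.86 (adjusted p = 0.0765). Exons of RAB3A overlap MPV17L2 on the opposite strand, which had a log2 fold change of -0.22.

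The other members of the RAB3 group did not pass. RAB3C, at 5.0, 4.12 and 4.09 CPM in controls, was at 6.76, 7.60 and 6.59 CPM in knockouts (log2 0.67, adjusted p = 0.0582). It passed in DESeq2 (0.0137) and without knockout replicate 3 (0.0413), and in none of the other alternatives. RAB3B, at under 1 CPM in every library, stood at a log2 fold change of 0.83 (adjusted p = 0.157). For both of these genes the knockout values lay above all control values. RAB3D, a RAB of exocytosis in secretory cells, was at 32.1, 20.5 and 26.0 CPM in controls and 35.4, 28.0 and 28.8 CPM in knockouts, and its groups overlapped (log2 0.23, adjusted p = 0.478). RAB26, which acts in the maturation of secretory granules, ranged from 0.136 to 1.26 CPM in controls and from 1.37 to 2.73 CPM in knockouts (log2 1.48, adjusted p = 0.114). It passed in DESeq2 (0.0329), with no filter (0.000299), with the replicate block (0.0268) and without control replicate 1 (log2 2.23, adjusted p = 0.0325). Without control replicate 2 its log2 fold change was 0.98 (adjusted p = 0.223). RAB44, a large RAB of bone marrow cells, was at 39.9, 43.0 and 54.1 CPM in controls and 67.7, 65.9 and 46.9 CPM in knockouts, with 1 knockout library inside the control range (log2 0.40, adjusted p = 0.188). Without that library, knockout replicate 3, the log2 fold change of RAB44 was 0.57 (adjusted p = 0.0275). RAB44 lies on chromosome 6, whose median log2 fold change was 0.43, and after chromosome centring it was at -0.03 (adjusted p = 0.949).

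**Figure D2:**
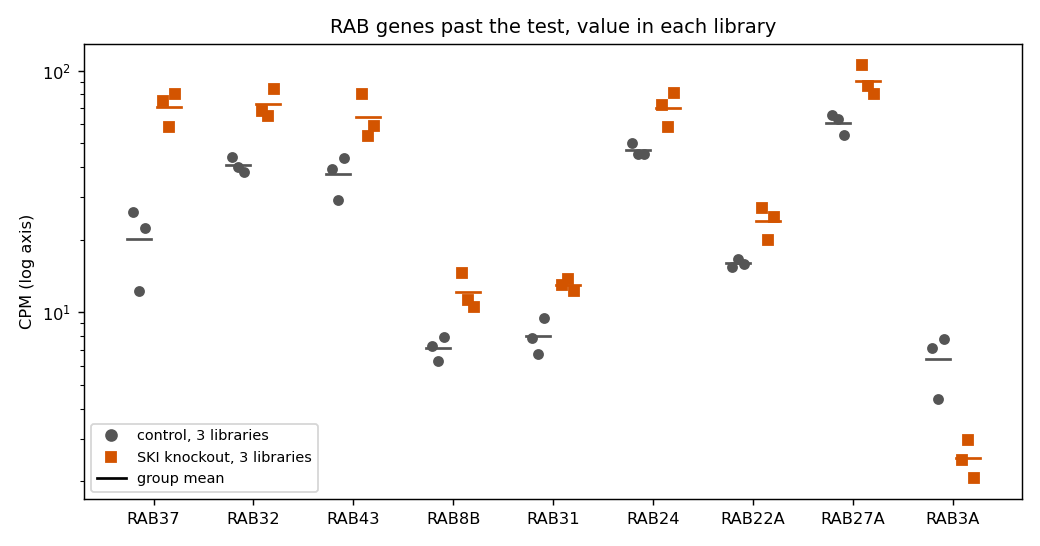
CPM on a log axis of the 9 RAB genes past the test in each control library (grey circles) and knockout library (orange squares), with lines at the group means. For each of the 9 the groups do not overlap, and RAB37, from 12.3 to 25.9 CPM in the control and from 58.7 to 79.8 CPM in the knockout, has the widest gap of those that rose.

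The bases before the start site are shown for the 4 called genes with the smallest p that the RefSeq promoter table holds, RAB3A that fell and 3 that rose, so that their promoter-proximal motifs can be set side by side. The table matched 40 of the 51 RAB genes and 8 of the 9 called. It has no entry for RAB37. Each sequence is the 250 bases upstream of the RefSeq start, 5′ to 3′ on the strand of the gene, on GRCh38.p14, a later build than that of the counts. Capitals mark matches, on either strand, to the E-box CACGTG, the CRE half-site TGACG, the CCAAT box CCAAT and the GC box GGGCGG.
RAB32 (chr6:146543583-146543832, plus strand): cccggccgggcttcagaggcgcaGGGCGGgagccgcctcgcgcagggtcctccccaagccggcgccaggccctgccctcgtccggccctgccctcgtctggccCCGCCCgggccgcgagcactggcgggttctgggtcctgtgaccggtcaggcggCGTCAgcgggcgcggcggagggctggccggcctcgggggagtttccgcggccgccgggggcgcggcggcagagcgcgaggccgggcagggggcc
RAB3A (chr19:18204043-18204292, minus strand): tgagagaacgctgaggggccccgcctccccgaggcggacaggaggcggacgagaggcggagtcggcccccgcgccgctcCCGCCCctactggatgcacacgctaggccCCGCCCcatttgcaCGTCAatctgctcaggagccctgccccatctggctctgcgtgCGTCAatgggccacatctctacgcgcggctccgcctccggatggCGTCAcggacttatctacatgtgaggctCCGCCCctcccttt
RAB43 (chr3:129121923-129122172, minus strand): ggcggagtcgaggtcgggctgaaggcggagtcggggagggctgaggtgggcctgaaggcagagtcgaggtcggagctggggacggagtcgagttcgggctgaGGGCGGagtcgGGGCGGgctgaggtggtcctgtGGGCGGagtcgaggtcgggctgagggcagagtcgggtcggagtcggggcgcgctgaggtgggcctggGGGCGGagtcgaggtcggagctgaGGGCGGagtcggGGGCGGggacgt
RAB8B (chr15:63189356-63189605, plus strand): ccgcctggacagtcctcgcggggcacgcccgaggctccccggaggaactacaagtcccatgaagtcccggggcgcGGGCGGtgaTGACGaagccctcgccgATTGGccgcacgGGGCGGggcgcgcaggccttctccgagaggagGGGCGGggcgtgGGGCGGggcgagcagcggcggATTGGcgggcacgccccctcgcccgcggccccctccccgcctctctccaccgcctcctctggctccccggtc
The RAB32 window held 2 GC boxes and 1 CRE half-site, that of RAB3A 3 GC boxes and 3 CRE half-sites, that of RAB43 6 GC boxes with no CRE half-site, and that of RAB8B 4 GC boxes, 1 CRE half-site and 2 CCAAT boxes. A GC box was present in 36 of the 40 RAB windows, the 8 called ones included, and in 42.3% of the 27305 windows of the table. Those windows are 1 per gene, whether or not the gene had counts here, while the RAB genes were kept by a minimum count. Shares among expressed genes only were not computed. The median GC content was 66.8% in the RAB windows and 58% in all windows. A CRE half-site was present in 16 of the 40 against 21.7% of all windows, an E-box in 5 against 6.49%, a CCAAT box in 11 against 33.04% and the ETS core CCGGAA in 12 against 14.8%. The SMAD element GTCTAGAC was in none of the 40 RAB windows and in 0.176% of all windows, and the shorter CAGAC was in 13 of the 40 against 37.8%. A match describes these letters only.

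Among RABs of early endosomes, 2 of 10 passed (20%, against 11.8% of all genes tested), both higher, with a median log2 fold change of 0.28. RAB31 and RAB22A are close relatives that act in sorting from early endosomes and the trans-Golgi network. RAB31 measured 7.85, 6.72 and 9.44 CPM across the controls and 13.0, 13.7 and 12.3 CPM across the knockouts, 1.62-fold higher (log2 0.70, SE 0.19, adjusted p = 0.0343). RAB22A measured 15.4, 16.7 and 15.9 CPM across the controls and 27.1, 19.9 and 24.7 CPM across the knockouts, 1.49-fold higher (log2 0.58, SE 0.17, adjusted p = 0.0470). Groups did not overlap for either gene. The adjusted p of RAB31 without control replicates 1, 2 and 3 and knockout replicates 1 and 2 was 0.115, 0.151, 0.0566, 0.0819 and 0.0521. The adjusted p of RAB22A was the highest of the 9, and without control replicates 1, 2 and 3 and knockout replicate 1 it was 0.153, 0.123, 0.153 and 0.145. RAB22A also missed with library totals (0.0664), limma-voom (0.0534), the replicate block (0.0652) and chromosome centring (0.0574).

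The RAB5 proteins, which drive fusion of early endosomes, did not pass. RAB5C, the highest of them by CPM, was at 106, 114 and 102.7 CPM in controls and 115, 98.7 and 109.9 CPM in knockouts, with overlap. RAB5A was at 30.7, 33.2 and 28.1 CPM in controls and 51.6, 34.8 and 39.8 CPM in knockouts, without overlap (log2 0.46, adjusted p = 0.117), and passed without knockout replicate 2 (0.0474). RAB5B overlapped between the groups. RAB21, which carries integrins through early endosomes, was at 22.7, 25.1 and 24.0 CPM in controls against 34.1, 28.6 and 28.6 CPM in knockouts, without overlap (log2 0.35, adjusted p = 0.171). RAB4A, RAB4B, RAB14 and RAB20 overlapped between the groups. Of the 50-base stretches of annotated transcripts, 37.7% for RAB4B occur also in other genes, foremost the read-through genes RAB4B-EGLN2 and MIA-RAB4B, 24.7% for RAB5C and 17.9% for RAB4A, so reads of these genes are uncertain.

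Of 7 RABs of recycling and the plasma membrane 1 passed (14.3%, against 11.8% of all genes tested), higher. The median log2 fold change was -0.03. RAB8B measured 7.24, 6.26 and 7.87 CPM across the controls and 14.6, 11.2 and 10.5 CPM across the knockouts. These did not overlap, and RAB8B was 1.70-fold higher (log2 0.76, SE 0.20, adjusted p = 0.0297). Without control replicates 1, 2 and 3 and knockout replicate 1 its adjusted p was 0.0884, 0.129, 0.0772 and 0.107. RAB8A, its far more abundant paralog in transport to the cell surface, had values on the other side, 124, 125 and 131 CPM in controls and 90.1, 99.5 and 98.3 CPM in knockouts. Its groups did not overlap either, but the log2 fold change of -0.40 did not pass (95% interval from -0.70 to -0.10, adjusted p = 0.0792), and it was 0.09 after chromosome centring.

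RAB11A and RAB11B, the RABs of the recycling endosome, likewise had log2 fold changes on opposite sides of 0, and neither passed. RAB11A was at 42.8, 39.3 and 37.2 CPM in controls and 51.4, 46.3 and 54.2 CPM in knockouts (log2 0.35, adjusted p = 0.147). RAB11B was at 60.1, 64.6 and 55.3 CPM in controls and 53.5, 43.3 and 53.3 CPM in knockouts (log2 -0.26, adjusted p = 0.293), and its log2 fold change was 0.22 after chromosome centring. Groups did not overlap for either. RAB15, a RAB of endosomal recycling, was at 2.47, 1.24 and 2.92 CPM in controls and 3.92, 3.60 and 5.87 CPM in knockouts, a log2 fold change of 1.02 that did not pass in edgeR (adjusted p = 0.0702). It passed in DESeq2 (0.0148), with no filter (0.00372) and with the replicate block (0.0189). It also passed after chromosome centring (log2 1.19, 0.0482) and without knockout replicate 2 (0.0481). RAB15 missed in limma-voom (0.0587). Without control replicates 1, 2 and 3 and knockout replicates 1 and 3 its adjusted p was 0.115, 0.215, 0.0905, 0.125 and 0.120. RAB10, which acts in exocytosis, was at 56.2, 55.4 and 57.6 CPM in controls and 56.3, 53.4 and 55.8 CPM in knockouts, with a 95% interval of its log2 fold change from -0.33 to 0.26. RAB35 overlapped between the groups.

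Among 6 RABs of late endosomes and lysosomes 1 passed (16.7%, against 11.8% of all genes tested), higher. The median log2 fold change was 0.00. RAB24, which acts in autophagy, measured 50.02, 45.4 and 45.2 CPM across the controls and 71.9, 58.5 and 80.7 CPM across the knockouts, without overlap and 1.501-fold higher (log2 0.59, SE 0.16, adjusted p = 0.0335). Without control replicates 1, 2 and 3 and knockout replicate 1 its adjusted p was 0.0794, 0.138, 0.138 and 0.0888, and after chromosome centring 0.0587 (log2 0.56). Exons of RAB24 overlap MXD3 on the same strand, and 38.1% of the 50-base stretches of its annotated transcripts also occur in MXD3 transcripts, so reads of these genes cannot be separated with certainty. MXD3 itself was at a log2 fold change of 0.55 (adjusted p = 0.0780). RAB7A was at 192, 222 and 178 CPM in controls and 186, 237 and 189.6 CPM in knockouts, and the groups overlapped. RAB9A, which returns receptors from late endosomes to the Golgi, was at 21.2, 20.8 and 15.02 CPM in controls and 23.5, 32.4 and 24.4 CPM in knockouts (log2 0.49, adjusted p = 0.127). RAB39A, a RAB of phagosomes, was at 0.230, 0.373 and 0.458 CPM in controls and 0.199, 0.207 and 0.0572 CPM in knockouts (log2 -1.20, adjusted p = 0.153). RAB9B and RAB12 overlapped between the groups.

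Of 12 RABs acting between the endoplasmic reticulum and the Golgi or at the Golgi 1 passed, higher, with a median log2 fold change of 0.33. That is 8.33%, against 11.8% of all genes tested. RAB43, a RAB of Golgi traffic, measured 39.4, 29.1 and 43.5 CPM across the controls and 80.4, 53.6 and 59.3 CPM across the knockouts. These did not overlap, and RAB43 was 1.73-fold higher (log2 0.79, SE 0.20, adjusted p = 0.0251). Without control replicates 1, 2 and 3 and knockout replicate 1 its adjusted p was 0.0568, 0.120, 0.0568 and 0.0995. Of the 50-base stretches of RAB43 transcripts, 80.0% occur in another gene, foremost the read-through gene ISY1-RAB43, itself at a log2 fold change of 0.37 (adjusted p = 0.117), so the RAB43 level is uncertain. RAB2A, which acts in early secretory and lysosomal transport, was at 13.7, 14.6 and 11.6 CPM in controls and 20.3, 16.9 and 23.7 CPM in knockouts. Its log2 fold change of 0.61 did not pass in edgeR (adjusted p = 0.0542). It passed in DESeq2 (0.0235), with no filter (0.0295) and without knockout replicate 2 (0.0251), and in none of the other alternatives.

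RAB1A is a partner of RAB1B in transport to the Golgi. It was at 42.0, 42.7 and 33.7 CPM in controls and 63.2, 52.3 and 45.6 CPM in knockouts (log2 0.44, adjusted p = 0.116). Of the alternatives it passed only without knockout replicate 3 (0.0304). Without knockout replicate 1 and without control replicate 3 its adjusted p was 0.292 and 0.366. RAB18, a RAB of the endoplasmic reticulum and lipid droplets, was at 5.90, 6.72 and 6.01 CPM in controls and 9.05, 7.84 and 8.35 CPM in knockouts (log2 0.44, adjusted p = 0.160). RAB33B, which acts at the Golgi and in autophagy, also had no overlap between groups (log2 0.35, adjusted p = 0.280). RAB6A, RAB6B, RAB2B, RAB30, RAB33A, RAB7L1 and RAB1B overlapped between the groups. RAB6A, a RAB of retrograde Golgi transport, ranged from 56.4 to 98.6 CPM in knockouts. Of the 50-base stretches of its annotated transcripts 14.2% occur also in other genes, foremost RAB6C and RAB6D, so its reads are uncertain.

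Of 5 other RABs edgeR, DESeq2 and limma-voom called 0, where edgeR called 11.8% of all genes tested. For 3 the unadjusted edgeR p was under 0.05. RAB40C, part of a ubiquitin ligase, was at 31.9, 31.1 and 29.8 CPM in controls and 25.2, 23.1 and 18.1 CPM in knockouts, without overlap (log2 -0.48, adjusted p = 0.0858). RAB28, a RAB of cilia and photoreceptors, stood at a log2 fold change of 0.42 (adjusted p = 0.168), RAB40B, of the same family as RAB40C, one of 0.52 (adjusted p = 0.199), and RAB42 one of 0.88 (adjusted p = 0.145). RAB42 and RAB23 overlapped between the groups.

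Paralogs of a family were also compared by their shares of the summed RPKM of the family within each library, a quantity that scaling between libraries does not touch. Shifts of whole chromosomes do enter a share where paralogs lie on different chromosomes, and the shares were not centred. Over 14 families 19 shares were compared, and 12 did not overlap between the groups. By CPM 32.2% of all genes tested did not overlap, and no such figure was computed for shares in other gene families. Shares of a family are tied, and all RAB3 shares are among the 12, so these are not 12 separate shifts. With 3 against 3 libraries the two-sided exact permutation p cannot go below 0.1, and adjusted over the 19 shares the smallest was 0.158, so none passes a threshold of 0.05. RAB3A made up 33.3%, 32.2% and 40.2% of the RAB3 family across the controls and 13.4%, 18.5% and 13.5% across the knockouts. The share of RAB3D in that family was 59.8% ± 3.71 in controls and 76.3% ± 3.73 in knockouts (SD, n = 3 each), and that of RAB3C 4.70% ± 0.881 and 8.004% ± 1.02 (SD, n = 3 each). Shares of a family sum to the whole, so a lower RAB3A alone raises the others.

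RAB8A made up 94.5%, 95.2% and 94.3% of the RAB8 pair across the controls and 86.1%, 89.9% and 90.4% across the knockouts, so RAB8B stayed the minor form. RAB11A made up 22.4% ± 1.38 of the RAB11 pair in controls and 30.6% ± 1.12 in knockouts (SD, n = 3 each), and RAB2A 36.8% ± 4.96 and 47.8% ± 3.70 of the RAB2 pair (SD, n = 3 each). Within RAB5, the share of RAB5A was 20.1% ± 1.21 in controls and 24.5% ± 1.42 in knockouts, and that of RAB5C 48.9% ± 2.17 and 43.9% ± 3.27 (SD, n = 3 each). RAB40B made up 4.58% ± 0.537 of its pair with RAB40C in controls and 9.01% ± 2.46 in knockouts (SD, n = 3 each). RAB27A held at least 98.0% of its pair with RAB27B, and RAB32 at least 98.4% of its pair with RAB38, in every library. The shares of RAB1A, RAB4A, RAB5B, RAB6A, RAB9A, RAB22A and RAB33A overlapped between the groups. RAB8A and RAB11B lie on chromosome 19, RAB2B on 14 and RAB40C on 16, where median log2 fold changes were -0.49, -0.17 and -0.10. Their partners lie on other chromosomes. After chromosome centring, log2 fold changes were 0.75 for RAB8B and 0.09 for RAB8A, and 0.33 for RAB11A and 0.22 for RAB11B. They were 0.64 for RAB2A and 0.13 for RAB2B, and 0.53 for RAB40B and -0.38 for RAB40C. The part of the chromosome shifts in the shares was not tested.

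**Figure D3:**
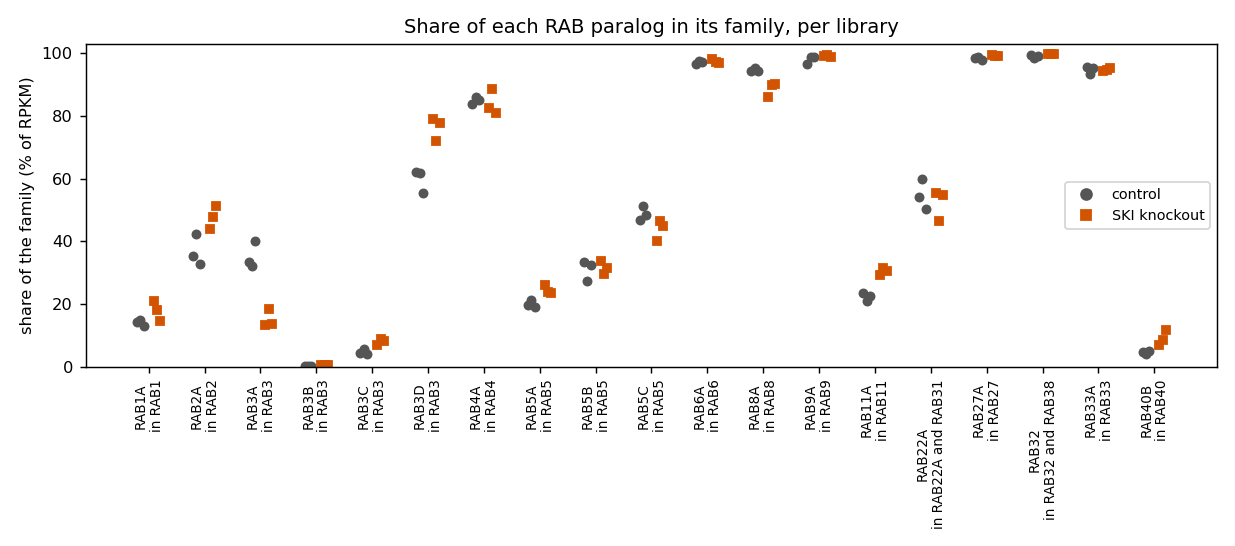
Share of each named paralog in the summed RPKM of its family (vertical axis, percent) in each control library (grey circles) and knockout library (orange squares). RAB3A lies between 32.2% and 40.2% in the control and between 13.4% and 18.5% in the knockout, while RAB3D, RAB2A and RAB11A lie higher in every knockout library. Shares are not centred by chromosome.

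The chromosome on which a RAB gene lies went with part of these values, as the genes of some chromosomes were shifted together between the groups. Median log2 fold changes by chromosome were -0.49 on chromosome 19, 0.43 on chromosome 6, 0.23 on chromosome 22, -0.22 on chromosome 9, -0.17 on chromosome 14 and -0.10 on chromosome 16, and lay between -0.07 and 0.05 on the others. On chromosome 19 lay 5 RAB genes, RAB3A, RAB8A, RAB11B, RAB3D and RAB4B, and after chromosome centring their log2 fold changes were -0.86, 0.09, 0.22, 0.72 and 0.72 in that order. RAB3D then passed (adjusted p = 0.0404) while RAB3A did not. On chromosome 6 lay RAB32, RAB44 and RAB23, a RAB of cilia and Hedgehog signalling, and after centring these were at 0.40, -0.03 and 0.06. RAB8A and RAB11B, whose log2 fold changes lay opposite to those of their paralogs, are on chromosome 19, while RAB8B and RAB11A are on chromosome 15, whose median was 0.03. RAB14 on chromosome 9 and RAB2B on chromosome 14 were at -0.08 and -0.05, and at 0.14 and 0.13 after centring.

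Of the 42 RAB genes outside chromosomes 6, 9, 19 and 22, whose medians lay farthest from 0, 7 were called, all higher (16.7%, against 9.5% of the 11199 tested genes of the same chromosomes), with a median log2 fold change of 0.35, against -0.01. Groups did not overlap for 25 of these 42, against 30.1% of those genes, with the knockout above for 21 and below for 4. With chromosome centring 7 RAB genes were called in all (13.7%, against 8.57% of all genes tested), RAB37, RAB43, RAB8B, RAB31, RAB27A, RAB15 and RAB3D, each of them higher, and the median over the 51 was 0.32.

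**Figure D4:**
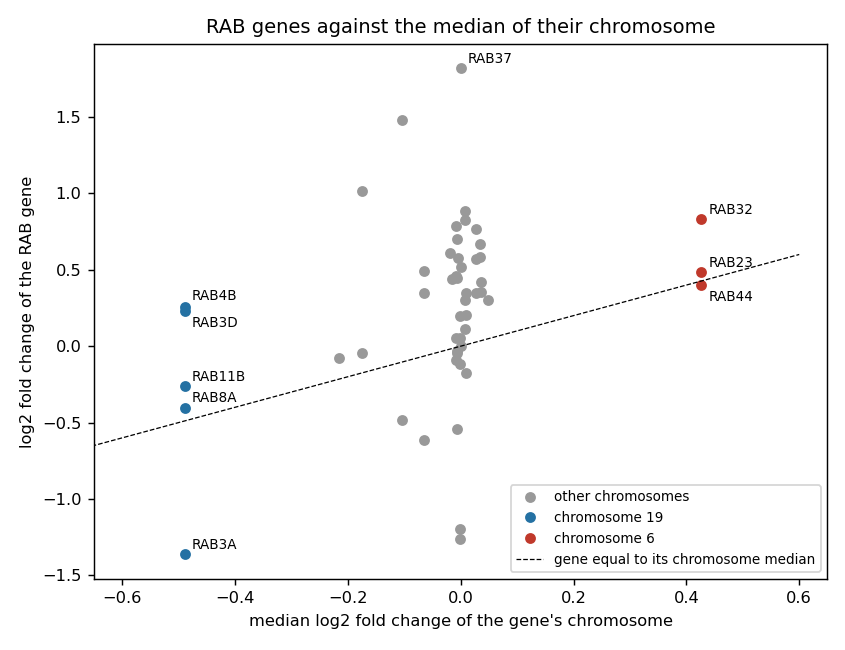
Log2 fold change of each RAB gene (vertical axis) against the median log2 fold change of the genes of its chromosome (horizontal axis), with chromosome 6 in red, chromosome 19 in blue and a dashed line where both are equal. RAB8A on chromosome 19 and RAB44 and RAB23 on chromosome 6 lie near the line, while RAB37, at 1.82 with a chromosome median close to 0, lies far from it.

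Exchange factors switch RAB proteins on, GTPase-activating proteins switch them off, prenylation and GDI proteins anchor and extract them, and effectors bind the active form. Of 134 genes in 4 lists 123 were tested, of which 12 rose and 6 fell (14.6% called, against 11.8% of all genes tested), with a median log2 fold change of 0.05. With library totals in place of TMM scaling 11 rose and 3 fell, and with chromosome centring 11 were called (8.94%, against 8.57% of all genes tested). The count was 11, 7, 7 and 8 without control replicates 1, 2 and 3 and knockout replicate 1, or 8.94%, 5.69%, 5.69% and 6.504%, against 8.09%, 5.61%, 4.45% and 6.09% of all genes tested in those fits. Without knockout replicates 2 and 3 it was 21 and 23 (17.1% and 18.7%, against 14.7% and 13.6%).

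Among 38 tested exchange factors 3 rose and 1 fell (10.5%, against 11.8% of all genes tested), with a median of 0.04. DENND6B, an exchange factor for RAB14, was at 3.26, 1.27 and 2.85 CPM in controls and 8.67, 5.61 and 10.8 CPM in knockouts (log2 1.77, adjusted p = 0.00832). DENND2D was at 0.293, 0.119 and 0.0705 CPM in controls and 0.904, 0.517 and 0.743 CPM in knockouts (log2 2.19, adjusted p = 0.0154), and ST5, also called DENND2B, at 0.188, 0.153 and 0.159 CPM and 0.506, 0.745 and 0.724 CPM (log2 1.97, adjusted p = 0.00754). DENND2D had 139 and ST5 129 counts over the 6 libraries. Both stayed under 1 CPM in every library, so the fit with CPM at least 1 in 3 libraries did not test them. Without control replicate 3 the adjusted p was 0.0868 for DENND2D and 0.0531 for ST5. That of DENND2D was 0.0754 without control replicate 2 and 0.0738 without knockout replicate 1. ANKRD27, an exchange factor for RAB21 that also binds RAB32 and RAB38, was at 101, 110.5 and 113 CPM in controls and 71.0, 81.8 and 44.3 CPM in knockouts (log2 -0.72, adjusted p = 0.0411). It lies on chromosome 19, and after centring it was at -0.21 (adjusted p = 0.598). Its adjusted p was 0.0715, 0.125, 0.146 and 0.0900 without control replicates 1, 2 and 3 and knockout replicate 1, and 0.0817 with library totals.

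Of 34 tested GTPase-activating proteins 3 rose and 2 fell (14.7%, against 11.8% of all genes tested), with a median of -0.03. TBC1D10C, which acts on RAB35, was at 21.99, 14.2 and 21.3 CPM in controls and 61.1, 30.7 and 102.9 CPM in knockouts, a wide spread above all control values (log2 1.76, SE 0.35, adjusted p = 0.00832). TBC1D4, known for holding RAB10 in check until insulin acts, was at 51.0, 62.5 and 85.8 CPM in controls and 33.1, 48.0 and 27.5 CPM in knockouts (log2 -0.88, adjusted p = 0.0326). Its adjusted p was 0.0756, 0.166 and 0.124 without control replicates 2 and 3 and knockout replicate 1, and 0.0523 with library totals. TBC1D22B on chromosome 6 (log2 0.57, adjusted p = 0.0337) and TBC1D13 on chromosome 9 (log2 -0.50, adjusted p = 0.0404) were at 0.15 and -0.29 after chromosome centring and passed no longer (0.592 and 0.240). Without control replicates 1, 2 and 3 and knockout replicate 1 the adjusted p of TBC1D22B was 0.130, 0.0779, 0.140 and 0.0733, and that of TBC1D13 0.0989, 0.134, 0.156 and 0.0822. TBC1D13 also missed without knockout replicate 2 (0.0875), with library totals (0.0887), with no filter (0.0939) and with the replicate block.

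Of 44 tested effectors 6 rose and 3 fell (20.5%, against 11.8% of all genes tested), with a median of 0.08. MICAL1, an enzyme that takes apart actin filaments and is recruited by RABs, was at 30.6, 25.3 and 33.2 CPM in controls and 66.8, 63.9 and 69.7 CPM in knockouts (log2 1.17, SE 0.15, adjusted p = 0.00112). It lies on chromosome 6, and after centring it was at 0.74 (adjusted p = 0.0121). EHBP1L1, an effector of RAB8 and RAB10, was at 37.0, 28.8 and 38.2 CPM in controls and 80.8, 72.6 and 82.6 CPM in knockouts (log2 1.18, SE 0.16, adjusted p = 0.00119). RAB11FIP4 and RAB11FIP3, related partners of RAB11, went in opposite directions. RAB11FIP4 was at 7.09, 3.78 and 7.93 CPM in controls and 18.2, 17.8 and 20.5 CPM in knockouts (log2 1.59, adjusted p = 0.00288). RAB11FIP3 was at 41.7, 47.2 and 53.8 CPM in controls and 28.4, 30.1 and 28.2 CPM in knockouts (log2 -0.72, adjusted p = 0.0114), and its adjusted p was 0.0704 without control replicate 3.

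Of the 7 genes of RAB prenylation and GDI edgeR called 0, against 11.8% of all genes tested. The unadjusted edgeR p was under 0.05 for 1, and DESeq2 and limma-voom each called 1. That gene was RABGGTA, a subunit of the RAB geranylgeranyl transferase, named after its values were seen. It was at 39.6, 39.3 and 41.9 CPM in controls and 21.4, 26.8 and 32.5 CPM in knockouts, without overlap (log2 -0.58, adjusted p = 0.0519 in edgeR, 0.0335 in DESeq2 and 0.0459 in limma-voom). Its adjusted p was 0.0410 with no filter and 0.00915 without knockout replicate 3, and after chromosome centring it was at -0.41 (adjusted p = 0.180).

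The authors' deposited table lists 12 of the 51 RAB genes with an adjusted p under 0.05, 11 of them higher, against 11.9% of the 21935 genes it holds. All 9 genes called here were among these 12, and the others were RAB15, RAB3C and RAB2A.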

How the data were processed

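Strand-marking mRNA libraries were made from 3 control and 3 SKI knockout HL60 samples, per the labels' protocols. The tools bcl2fastq, TopHat2, Subread, featureCounts, DESeq and DESeq2 and the build hg19 (GRCh37) are named in the submitters' processing notes. Not given in the sources used here are tool versions, the annotation, whether counting used strand and what became of reads that fit several genes. Every test started from the raw counts the authors deposited, which come with a length for each gene. A second deposited table holds a signal, in which the raw counts of each library are divided by a factor of that library, with the authors' log2 fold changes, a test score and p-values, of which the log2 fold changes and adjusted p-values were used.

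The whole table was fitted with edgeR 4.0.16 (filterByExpr, TMM, quasi-likelihood F test, group as the only term, R 4.3.3), and p-values were Benjamini-Hochberg adjusted over all 16340 genes tested, with a threshold of 0.05. Standard errors come from the F statistic, and 95% intervals use the total degrees of freedom of the fit. CPM use TMM-scaled library sizes, and RPKM divide them by the deposited length. The RAB genes, roles and lists were chosen with earlier results of these data known, and the roles of 2 genes, RAB39A and RAB7L1, were reassigned after values were seen. Any RAB gene could be named, and up to 4 called genes of each list with the smallest p. Chromosomes, found for 84.4% of tested genes, and exon overlaps were taken from GENCODE release 29 by symbol. For chromosome centring, the median log2 ratio to the control mean over genes of a chromosome with an average log2 CPM above 2 entered as an offset per library. Promoters are from RefSeq on GRCh38.p14. The alternatives tried were size factors of DESeq2, library totals, no filter, CPM at least 1 in 3 libraries, DESeq2 1.42.0, limma-voom (limma 3.58.1), the replicate number as a block, chromosome centring and each library left out. In counts simulated for 16340 genes, 200 genes with an average log2 CPM above 2 were changed. The test recovered 85% of these 2-fold and 100% of these 4-fold changes, and unchanged genes made up 6.09% of its calls. The simulated spread followed the trend with level only, and no chromosome was shifted. Recovery for genes of lower level or wider spread was not tested.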

Additional observations from a re-analysis of the deposited data

How the results depend on the processing

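With a single library left out the count of called RAB genes ranged from 2 to 13 against 9, that of regulators and effectors from 7 to 23 against 18, and that of all genes from 740 to 2488 against 1932. These fits hold fewer libraries. RAB37 and RAB32 were called in each of the 6. With chromosome centring 11 regulators and effectors were called, 7 RAB genes (7 higher and none lower, against 8 and 1) and 1401 genes in all. The same alternative reversed the log2 fold changes of RAB8A (0.0876 against -0.40), RAB11B (0.22 against -0.26), RAB14 (0.14 against -0.08), RAB2B (0.13 against -0.05) and RAB44 (-0.0270 against 0.40). With a single library left out the log2 fold change of RAB4B ranged from -0.0103, without knockout replicate 3, to 0.51, without knockout replicate 2, against 0.25. Of 4 further genes near 0 the sign also turned without a library. The range was from -0.0454 to 0.0160 for RAB10, -0.150 to 0.0563 for RAB14, -0.156 to 0.0990 for RAB2B and -0.0482 to 0.144 for RAB7A. None of the followed genes whose sign turned was called in the fit that turned it. The other alternatives that keep every library gave between 7 and 13 called RAB genes. Deviations from the group mean correlated across genes at -0.17, 0.42 and -0.09 for same-numbered libraries 1, 2 and 3. Other pairs reached 0.54 (control 1 with knockout 3) and -0.51 (control 1 with knockout 2). Only for number 2 did both libraries correlate best with their own number. Some libraries of the groups thus deviated together, but the numbers as a whole do not pair them. With the replicate block 10 RAB genes (9 higher, 1 lower), 21 regulators and effectors and 2107 genes were called. RAB22A (0.0652) and TBC1D13 (0.0693) did not pass with the block, while RAB15 (0.0189), RAB26 (0.0268) and RABGGTA (0.0434) did (adjusted p). Depth limits RAB genes of few counts such as RAB39A, with 83 counts over the 6 libraries.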
